A study of Mus musculus with 11 samples.

Results

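The comparison described here set the 2 kinds of control culture of an Smg6 knockout experiment against each other: neural progenitor cells (NPCs) that carried no Cre and received 4-hydroxytamoxifen (Ctr + 4-OHT), and NPCs that carried the CreERT2 transgene and received no drug (Ctr). It covered 7 of the 11 libraries of the study, 4 of Ctr + 4-OHT and 3 of Ctr, and 17665 of the 53801 genes in the count files passed the filter on low counts and were tested. All cultures came from whole brains of E13.5 mouse embryos on a C57BL/6 mixed with 129SV background, were Smg6 Flox/Flox and were grown with the growth factors EGF (20 ng/ml) and bFGF (10 ng/ml). The Ctr libraries were from embryos SMH_128, SMH_132 and SMH_133, genotype RosaCreER tg/+, with no treatment. The Ctr + 4-OHT libraries were from embryos SMH_125, SMH_126, SMH_129 and SMH_131, genotype RosaCreER +/+, which had 1 µM 4-OHT in the medium for 3 days according to the labels, with RNA taken 6 days after its addition. In the remaining group, Smg6-iKO, the same drug was given to RosaCreER tg/+ cells from embryos SMH_127, SMH_128, SMH_132 and SMH_133, so that 3 of its 4 libraries shared an embryo with a Ctr library. Rosa26 is a locus that is active in nearly all cell types, and the RosaCreER allele therefore does not restrict the recombinase to NPCs. Smg6, the endonuclease of nonsense-mediated mRNA decay, was floxed in both controls, which lacked either Cre or the drug. The drug, the CreERT2 allele and the embryos all differed between the 2 control groups, so their effects cannot be told apart by the comparison itself. The Smg6-iKO libraries, which carried both the allele and the drug and in which Smg6 was targeted for deletion, are given beside the controls without a test.

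As background, 4-OHT is an active metabolite of tamoxifen that binds the estrogen receptors. CreERT2 is a fusion of Cre recombinase with a mutated ligand-binding domain of the human estrogen receptor alpha, ESR1, which keeps the enzyme out of the nucleus until 4-OHT binds. Tamoxifen and related compounds are also cationic amphiphilic drugs, which can gather in lysosomes, and they bind enzymes of late sterol synthesis. Cells answer a shortage of sterol in the endoplasmic reticulum through the transcription factor SREBP2, which raises the enzymes of cholesterol synthesis, whereas an excess of oxysterols activates the LXR nuclear receptors, which raise cholesterol export.

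The libraries held 26478257 to 31576493 counted reads in Ctr and 26418249 to 31608937 in Ctr + 4-OHT. Markers of neural stem cells were high in all of them: Sox2, a transcription factor of neural progenitors, was at 261 to 319.9 CPM in Ctr and at 191 to 300.4 CPM in Ctr + 4-OHT, where CPM is a gene's read count scaled to the library size after TMM normalization. No blood cell marker was tested, since their summed level was at most 0.543 CPM in Ctr and 0.460 CPM in Ctr + 4-OHT. Within Ctr + 4-OHT the libraries differed more from each other than within Ctr: over the 14764 genes with a mean of at least 1 CPM, the median standard deviation of log2 CPM was 0.14 in Ctr + 4-OHT (n = 4), 0.10 in Ctr (n = 3) and 0.11 in Smg6-iKO (n = 4). The first principal component of the 7 libraries held 30.01% of the variance and set embryos SMH_125 and SMH_131 (scores 30.3 and 31.2) apart from the other 5 libraries (-22.9 to -0.47), which included both other Ctr + 4-OHT libraries. Xist, which is transcribed from the inactive X chromosome of females, was at 735 CPM or more in embryos SMH_133, SMH_125 and SMH_129 and at most 2.08 CPM in the other control libraries, so both groups held both sexes. The Ctr library of embryo SMH_133 also held 1.65 CPM of the Y-linked gene Ddx3y, against 0.355 CPM or less in the other libraries with high Xist and 97.5 CPM or more in those without it. The part of these differences in the results below was not tested beyond the fits that left out a library or added a term for sex.

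The fit with edgeR's quasi-likelihood test called 39 genes at a Benjamini-Hochberg adjusted p under 0.05, which was 0.221% of the genes tested. Of these, 7 were higher (0.0396%) and 32 were lower (0.181%) in Ctr + 4-OHT. At an unadjusted p under 0.05 there were 1462 of the 17665 genes tested, and the numbers of such genes in the lists below are to be read beside that share. The median log2 fold change over all genes tested was 0.0045, and the 5th and 95th percentiles were -0.38 and 0.37. Of the 39 called genes, 9 differed by at least 1 on the log2 scale and 30 by less, and 36 were protein-coding. In all 39 the highest library of one control group lay below the lowest of the other. Over all genes tested, 672 (3.8%) were non-overlapping and higher in Ctr + 4-OHT, and 867 (4.91%) non-overlapping and lower. With 3 libraries against 4 there are 35 ways to divide the libraries, and a two-sided exact permutation test of a single gene cannot give a p below 0.0571. The number of calls depended on single libraries and fell to 5 when the Ctr library of embryo SMH_128 or that of embryo SMH_132 was left out, to 16 without that of embryo SMH_133, to 14, 23 and 25 without the Ctr + 4-OHT library of embryo SMH_126, SMH_131 and SMH_125, and rose to 54 without that of embryo SMH_129. Lpcat1, Esr1, Colgalt2 and Wdfy1 were called in all 7 of these fits.

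**Figure D1:**
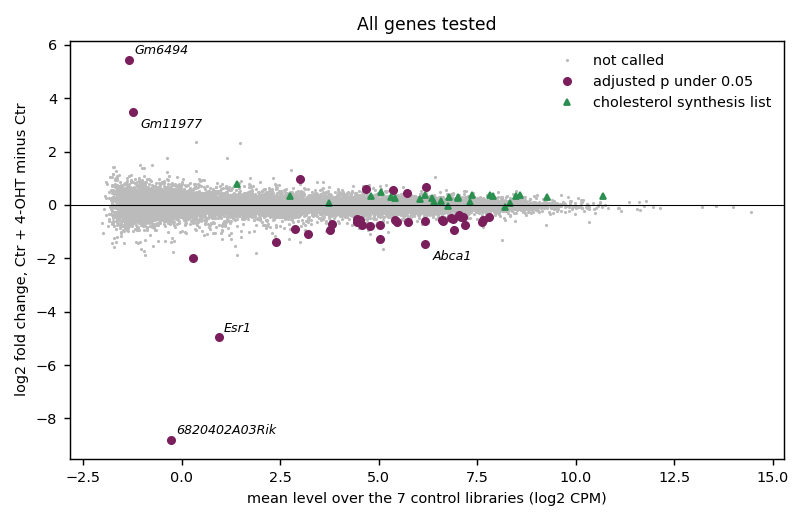
Log2 fold change between Ctr + 4-OHT and Ctr (vertical axis) against the mean level over the 7 control libraries in log2 CPM (horizontal axis), one point per gene tested, with the 39 called genes in purple and the 26 genes of cholesterol synthesis as green triangles. The largest differences belonged to Esr1 and to 3 genes of very low level, most other called genes lay a little below 0, and 24 of the 26 triangles lay above 0.

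Esr1, the estrogen receptor alpha gene (chr10:4611593-5005614, GRCm38), had the lowest p among the called genes after Lpcat1. It stood at 4.09, 4.12 and 4.67 CPM in the Ctr libraries of embryos SMH_128, SMH_132 and SMH_133 and at 0.112, 0.115, 0.0323 and 0.283 CPM in the Ctr + 4-OHT libraries of embryos SMH_125, SMH_126, SMH_129 and SMH_131. The 4 Smg6-iKO libraries, which had the drug and the allele, were at 3.89 to 4.71 CPM. Esr1 was thus higher in every library with the CreERT2 allele, with or without 4-OHT, than in any library without it. In counts, 15 reads in the 4 Ctr + 4-OHT libraries stood against 369 in the 3 Ctr libraries, a 31.6-fold difference per read sequenced with an exact 95% interval of 18.9 to 57.1 that covers counting error only. The log2 fold change was -4.96 ± 0.34 (SE) with an edgeR adjusted p of 0.000587, and it ranged from -5.60 to -4.61 without 1 library. Reads of the ESR1 part of the transgene and of the endogenous mouse gene cannot be told apart in counts per gene. Gt(ROSA)26Sor, the non-coding gene into which the allele was placed (chr6:113067428-113077333), was at 19.5, 21.5 and 19.9 CPM in Ctr, at 15.3, 13.2, 12.8 and 15.7 CPM in Ctr + 4-OHT, and at 19.8 to 21.9 CPM in Smg6-iKO. It was likewise higher in every library with the allele, although the difference of -0.51 ± 0.10 was not called by edgeR on the 7 libraries (adjusted p = 0.110) and was by edgeR on all 11 and by DESeq2. Within 10 Mb on either side of this locus 140 other genes were tested, and 1 of them, Vgll4, was called (0.714%, against 0.221% of all genes tested). Smg6 itself was at 69.4, 79.4 and 74.3 CPM in Ctr and at 66.5, 72.0, 72.3 and 66.6 CPM in Ctr + 4-OHT. It was at 62.5, 62.3, 71.9 and 67.5 CPM in Smg6-iKO, a range that overlapped both controls. Within embryos SMH_128, SMH_132 and SMH_133 it was lower in Smg6-iKO each time, at 62.3, 71.9 and 67.5 CPM against 69.4, 79.4 and 74.3 CPM in Ctr. These falls were small and were not tested, and a count over all exons does not resolve a deleted stretch. The 2 controls overlapped (log2 fold change -0.10 ± 0.07, adjusted p = 0.724), and none of 293 genes within 10 Mb of Smg6 was called.

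A list of estrogen target genes had no called member, but only 0.221% of all genes tested were called, so most lists this short would hold 0. The same applies to the other lists below. By limma-voom as well, each list below with 0 called by edgeR had 0, and calls that DESeq2 made in such a list are named beside it. They are to be read beside the 168 of 20249 genes that DESeq2 called, 74.4% of them lower. Of 17 tested members of a list of 24 estrogen target genes in the files, 0 were called by edgeR, 1 had an unadjusted p under 0.05, 10 were above and 7 below 0, and their median log2 fold change was 0.01. The member with the lowest p was Igfbp4, which encodes a binding protein of insulin-like growth factors, at 157 ± 4.66 CPM in Ctr and 131.96 ± 20.4 CPM in Ctr + 4-OHT (-0.25 ± 0.11, adjusted p = 0.584). The most abundant member was Ccnd1, cyclin D1, at 681 ± 38.8 and 720.1 ± 59.4 CPM (0.08 ± 0.08, adjusted p = 0.821). Pgr, the progesterone receptor and a classical estrogen target, was at 0.799 to 0.957 CPM in Ctr and 0.872 to 1.34 CPM in Ctr + 4-OHT. Of 16 tested estrogen receptor and coregulator genes, 0 were called, 1 had an unadjusted p under 0.05 and the median was -0.07. Hsp90ab1, a chaperone of steroid receptors and the most abundant member, differed by -0.10 ± 0.09. Esr2, the other nuclear estrogen receptor gene, did not pass the filter and was at 0.230 CPM or less in each control library.

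Among the called genes that were lower in Ctr + 4-OHT, Lpcat1 had the smallest p. Lpcat1 encodes an acyltransferase that rebuilds phosphatidylcholine (chr13:73467197-73516422). It was at 177, 167 and 156 CPM in Ctr and at 82.8, 84.7, 88.0 and 90.7 CPM in Ctr + 4-OHT, a 1.93-fold lower level (-0.95 ± 0.06, adjusted p = 0.000587). The spread within each group was small beside this gap, and Smg6-iKO was at 86.9, 88.2, 90.6 and 91.3 CPM, within or next to the treated range. Colgalt2, a galactosyltransferase that modifies collagen (chr1:152399830-152510695), was at 50.2, 52.2 and 44.8 CPM in Ctr and at 20.0, 20.3, 23.8 and 17.4 CPM in Ctr + 4-OHT (-1.27 ± 0.11, adjusted p = 0.00264). Its Smg6-iKO libraries were at 16.9 to 29.9 CPM. Abca1, the transporter that exports cholesterol to apolipoproteins (chr4:53030787-53159895), was at 120.3, 131.1 and 88.2 CPM in Ctr and at 39.6, 49.97, 38.6 and 37.9 CPM in Ctr + 4-OHT, a 2.73-fold lower level (-1.45 ± 0.14, adjusted p = 0.00592). All 4 Smg6-iKO libraries, at 44.2 to 65.8 CPM, lay between the lowest Ctr library and most of the treated ones. Vgll4, a cofactor that competes with YAP for TEAD transcription factors, was at 202, 195 and 177 CPM in Ctr and at 107, 115, 130.4 and 100.4 CPM in Ctr + 4-OHT (-0.76 ± 0.09, adjusted p = 0.0107). It was at 91.4 to 110.1 CPM in Smg6-iKO.

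Of the other called genes that fell, Adamts4, a protease that cuts aggrecan and other proteoglycans, was at 38.8, 37.2 and 31.8 CPM in Ctr and at 19.8 to 21.7 CPM in Ctr + 4-OHT (-0.80 ± 0.08, adjusted p = 0.00747). Mmp14, a membrane-bound matrix metalloproteinase, fell from 123 ± 6.66 (n = 3) to 81.0 ± 3.60 CPM (n = 4), with an adjusted p of 0.00693. Crispld2, a secreted protein, was at 11.997, 14.3 and 13.6 CPM in Ctr and at 5.77, 7.16, 6.59 and 5.44 CPM in Ctr + 4-OHT (-1.09 ± 0.12, adjusted p = 0.00877). Each of these 3 genes had a gap between the groups that was wider than the spread within either. Cpxm1, a secreted carboxypeptidase-like protein, fell from 42.9 ± 2.82 to 25.4 ± 3.05 CPM. Itga2, the integrin alpha 2 collagen receptor subunit, fell from 18.3 ± 2.78 to 11.04 ± 0.723 CPM. Nbl1, a secreted antagonist of bone morphogenetic proteins, fell from 31.1 ± 1.53 to 18.6 ± 1.77 CPM. Cldn10, a claudin of tight junctions, was at 10.99, 9.88 and 9.26 CPM in Ctr and at 5.28, 6.32, 5.69 and 4.24 CPM in Ctr + 4-OHT (-0.90 ± 0.14, adjusted p = 0.0480). The call of Cldn10 was lost in each of the 7 fits without 1 library, as was that of Lztr1, an adaptor for ubiquitination of RAS proteins, which was 1.31-fold lower. F2r, the thrombin receptor, fell 1.38-fold, and Cst3, the secreted protease inhibitor cystatin C, fell 1.49-fold. Tnfsf18, the ligand of the receptor GITR, was expressed at a low level, at 1.49, 2.72 and 2.22 CPM in Ctr and at 0.670, 0.383, 0.678 and 0.389 CPM in Ctr + 4-OHT (-2.001 ± 0.29, adjusted p = 0.0320). Its 4 Smg6-iKO libraries were at 1.04 to 2.02 CPM, above Ctr + 4-OHT and in part within the range of Ctr. Tagln, the actin-binding protein transgelin of smooth muscle cells, was at 6.59, 9.08 and 8.80 CPM in Ctr and at 3.05, 3.03, 3.91 and 2.33 CPM in Ctr + 4-OHT (-1.40 ± 0.19, adjusted p = 0.0207). Acta2, smooth muscle actin, was lower without overlap but was not called, at 3.85 to 8.27 CPM against 0.856 to 2.61 CPM (-1.81 ± 0.34, adjusted p = 0.105), although DESeq2 called it.

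Fam102a, also known as early estrogen-induced gene 1 and not on the list of estrogen targets, fell from 18.7 ± 2.70 to 9.71 ± 0.794 CPM (-0.95 ± 0.12, adjusted p = 0.0109). Samd4b, an RNA-binding protein of the Smaug family, fell 1.47-fold, and Ddx41, a DEAD-box helicase, fell 1.54-fold. Paqr8, a membrane receptor of progestins, was at 124, 122 and 110.2 CPM in Ctr and at 75.7 to 85.9 CPM in Ctr + 4-OHT. St3gal4, a sialyltransferase, fell 1.56-fold, Snn 1.54-fold and the small GTPase gene Rasl11a 1.49-fold. Cbfb, the partner of RUNX transcription factors, fell 1.46-fold, the transcription factor Maf 1.45-fold, Cdc42se1, which encodes a small effector of the GTPase CDC42, 1.37-fold, and Txnip, an inhibitor of thioredoxin, 1.37-fold. Txnip was the least stable of them to the choice of test, being called in 4 of 13 other fits.

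The called genes that were higher in Ctr + 4-OHT were fewer than those that were lower, and 5 of them had a mean of at least 1 CPM. Wdfy1, an adaptor protein of endosomes (chr1:79702262-79776143), was at 57.5, 54.3 and 52.5 CPM in Ctr and at 90.8, 87.9, 87.9 and 84.1 CPM in Ctr + 4-OHT, 1.60-fold higher (0.68 ± 0.06, adjusted p = 0.00386). Mfsd2a, a transporter that brings lysophospholipids with docosahexaenoic acid into cells, was at 21.1, 19.1 and 19.3 CPM in Ctr and at 30.4, 29.6, 30.6 and 29.3 CPM in Ctr + 4-OHT (0.60 ± 0.07, adjusted p = 0.0107). Both genes were tight within the groups. Pla2g3, a secreted phospholipase A2, rose from 5.17 ± 0.892 to 10.1 ± 0.969 CPM (0.97 ± 0.14, adjusted p = 0.0329). Rgs8, a regulator of G protein signalling, rose from 32.4 ± 0.555 to 47.6 ± 4.39 CPM (0.55 ± 0.08, adjusted p = 0.0410). The genes called higher also included the processed pseudogenes Gm6494 and Gm11977, which are described with the embryos below.

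**Figure D2:**
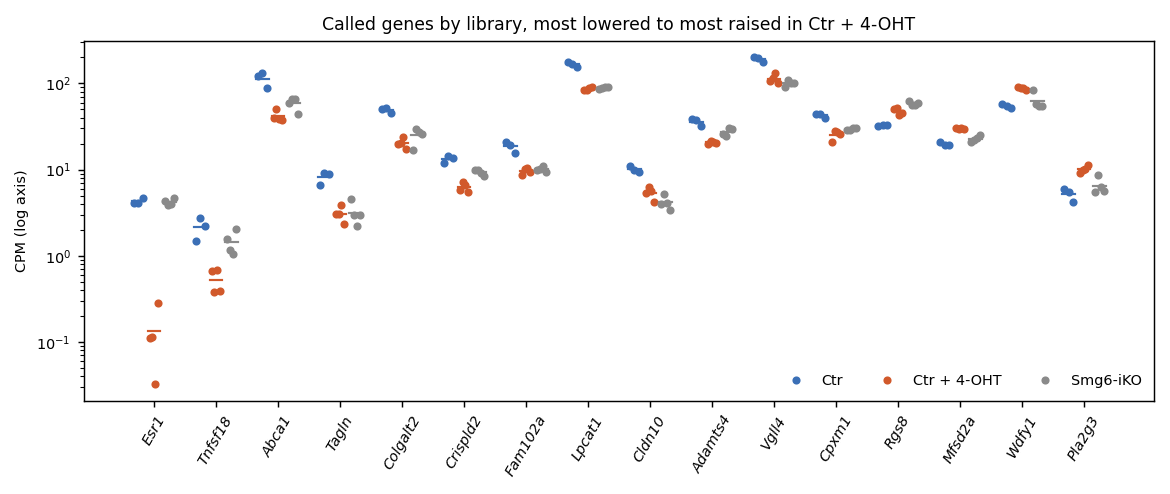
CPM on a log axis for Esr1 and 15 other called genes with a mean of at least 1 CPM and a large difference, ordered from the most lowered to the most raised in Ctr + 4-OHT, one point per library and a bar at each group mean. Grey Smg6-iKO points lay at the Ctr level for Esr1, at the Ctr + 4-OHT level for Lpcat1, Fam102a and Vgll4, and between or split for others such as Wdfy1 and Pla2g3.

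The Smg6-iKO libraries had the drug and the allele together, and their levels placed the called genes in different positions. For 23 of the 39 genes, 22 of them lower and 1 higher in Ctr + 4-OHT, all 4 Smg6-iKO libraries were nearer to the mean of Ctr + 4-OHT than to that of Ctr. Lpcat1, Colgalt2, Abca1, Vgll4, Samd4b, Rnf145 and Fam102a were among them, and Rgs8 was the one raised gene. For 1 gene, Esr1, all 4 were nearer to Ctr. For 11 genes the 4 libraries were divided, as in Hexa and Pla2g3, and in the other 4 genes the Smg6-iKO library of 1 embryo stood apart from the rest. These positions are a description: Smg6-iKO shared embryos with Ctr and was targeted for deletion of Smg6, and no test was made.

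In those 4 genes, Wdfy1, 6820402A03Rik, Gm6494 and Gm11977, the single Smg6-iKO library at the level of Ctr + 4-OHT was that of embryo SMH_127, the one Smg6-iKO embryo without a Ctr library. For Wdfy1 it was at 83.7 CPM, while the Smg6-iKO libraries of embryos SMH_128, SMH_132 and SMH_133 were at 57.1, 54.1 and 54.5 CPM, close to the 57.5, 54.3 and 52.5 CPM of the Ctr libraries from the same embryos. 6820402A03Rik, an unclassified transcript (chr1:66793645-66796298), had 66, 66 and 37 reads in Ctr and 0 in each of the 4 Ctr + 4-OHT libraries, which allows up to 3 reads over the group and makes the level at least 72.4-fold lower. It had 1 read in the Smg6-iKO library of embryo SMH_127 and 30, 47 and 49 reads in those of embryos SMH_128, SMH_132 and SMH_133. Gm6494 had 0, 1 and 0 reads in Ctr and 17, 14, 28 and 19 in Ctr + 4-OHT, a ratio of 60.7 with an exact 95% interval of 10.6 to 2427. In Smg6-iKO it had 27 reads in embryo SMH_127 and 0, 0 and 2 in the others. Gm11977 had 2, 0 and 3 reads in Ctr and 22, 17, 20 and 19 in Ctr + 4-OHT, a ratio of 12.1 with an interval of 4.98 to 38.4, and in Smg6-iKO 21 reads in embryo SMH_127 and 1 read in each of the others. Reads of processed pseudogenes can be shared with their parent genes, so these counts are uncertain in that respect. In all 4 genes embryos SMH_125, SMH_126, SMH_127, SMH_129 and SMH_131 lay on one side, and embryos SMH_128, SMH_132 and SMH_133 on the other with and without 4-OHT, although 6820402A03Rik in embryo SMH_128 was at 2.29 CPM in Ctr and 1.1001 CPM in Smg6-iKO. The part of embryo, allele and drug in these differences was not tested. Acadl, the long-chain acyl-CoA dehydrogenase of fatty acid oxidation, lies 34.5 kb from 6820402A03Rik and was at 50.5, 59.4 and 56.8 CPM in Ctr and at 36.5, 32.8, 40.1 and 33.2 CPM in Ctr + 4-OHT (-0.64 ± 0.09, adjusted p = 0.0320). Its Smg6-iKO library of embryo SMH_127 was at 33.0 CPM and the other 3 were at 47.9, 46.1 and 43.9 CPM. Chromosome 1 held 8 of the 39 called genes among 1195 tested there, which was 0.669% against 0.221% of all genes tested. It was singled out as the chromosome with the highest share, and chromosome 13 was next with 4 of 725 (0.552%).

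**Figure D3:**
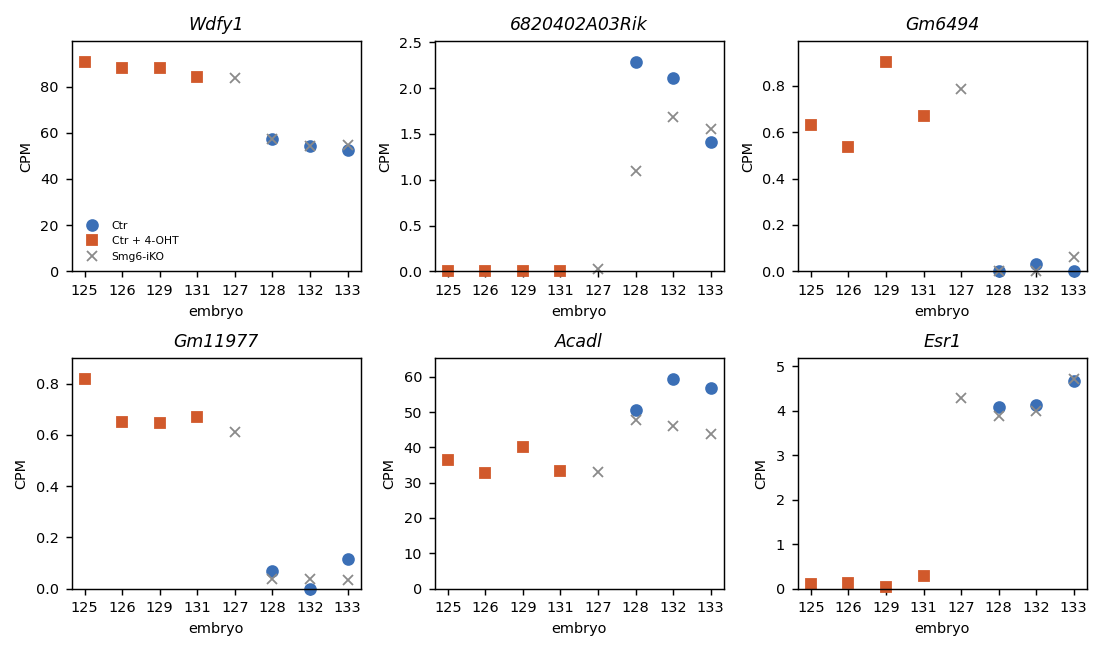
CPM by embryo for 6 called genes, with the Ctr library (circle), the Ctr + 4-OHT library (square) and the Smg6-iKO library (cross) of each embryo. Where embryos SMH_128, SMH_132 and SMH_133 gave both a circle and a cross, the 2 lay close together for Wdfy1, Gm6494, Gm11977 and Esr1, and the cross of embryo SMH_127 was at the level of the squares except for Esr1.

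Genes of cholesterol synthesis lay mostly above 0. Of 26 members of the list of cholesterol synthesis and SREBP2 target genes, all were tested, 24 had a log2 fold change above 0, and 17 were higher in Ctr + 4-OHT without overlap, where 3.8% of all genes were. By edgeR and by limma-voom 0 were called, and 18 had an unadjusted p under 0.05. DESeq2 called 4 higher (Cyp51, Fdps, Msmo1 and Nsdhl), where it called 43 of 20249 genes higher. The median was 0.31, against 0.0045 for all genes tested. The mean log2 CPM of the list was 6.82 and 6.79 in embryos SMH_125 and SMH_131, the libraries that stood apart on the first principal component, 6.59 and 6.62 in embryos SMH_126 and SMH_129, and 6.36 to 6.52 in Ctr, so all 4 treated libraries lay above Ctr and the former pair by more. Hmgcs1, the synthase that makes HMG-CoA and the most abundant member, was at 1520.1, 1396 and 1346 CPM in Ctr and at 2014, 1582, 1691 and 1946 CPM in Ctr + 4-OHT (0.35 ± 0.10, adjusted p = 0.391). Nsdhl, a dehydrogenase of the late pathway with the lowest p of the list, was at 64.3, 59.3 and 61.5 CPM in Ctr and at 81.8, 69.6, 80.1 and 86.2 CPM in Ctr + 4-OHT (0.37 ± 0.08, adjusted p = 0.174). Neither gene had overlapping groups. Fdps, farnesyl diphosphate synthase, was at 26.4 to 27.6 CPM against 32.5 to 44.9 CPM (0.48 ± 0.11, adjusted p = 0.174). Ebp, a late isomerase that binds tamoxifen, and Srebf2, which encodes SREBP2, had log2 fold changes of 0.07 ± 0.09 and -0.08 ± 0.07. The summed level of the 26 genes was 4656 to 5172 CPM in Ctr, 5376 to 6447 CPM in Ctr + 4-OHT, and 4409 to 5190.0 CPM in Smg6-iKO. The sums of Smg6-iKO, which also had the drug, thus overlapped those of the untreated Ctr and lay below all of Ctr + 4-OHT.

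On the side of cholesterol export, the list of 18 LXR targets and fatty acid synthesis genes had 1 member called lower, Abca1, where 0.181% of all genes were. Of the 18, 12 were below 0, 3 were lower and 1 was higher without overlap, where 4.91% and 3.8% of all genes were, and the median was -0.06. That median was -0.0038 without the Ctr library of SMH_128, -0.11 without that of SMH_132 and -0.043 without the Ctr + 4-OHT library of SMH_131. Apoe, the apolipoprotein that takes up exported lipid, was at 483, 479 and 306 CPM in Ctr and at 125.2, 226, 215 and 118 CPM in Ctr + 4-OHT. This gap of -1.31 ± 0.25 had no overlap but was not called (adjusted p = 0.113), although DESeq2 called it. Abcg1, the other main LXR exporter gene, was at 11.3 to 12.3 CPM in Ctr and at 6.98 to 11.5 CPM in Ctr + 4-OHT (adjusted p = 0.738). Scd2, a stearoyl-CoA desaturase and the most abundant member, had a log2 fold change of 0.14 ± 0.10. Outside the list, Rnf145, a ubiquitin ligase of the endoplasmic reticulum that is a known LXR target, was called, at 135, 136 and 136 CPM in Ctr and at 102, 97.4, 97.0 and 89.9 CPM in Ctr + 4-OHT (-0.49 ± 0.06, adjusted p = 0.0104). Its inclusion here was chosen after its value was seen.

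The stretches before the start sites of the 2 cholesterol genes described in full and of Abca1 are shown because they lay on opposite sides of the comparison. They are the 250 bases upstream of the RefSeq start (GRCm38.p6), read on the strand of the gene, with capitals for the sterol regulatory element core CACCCCAC, the CCAAT box and the E-box CACGTG on either strand. No 2 of the marked motifs overlapped.
Hmgcs1 (chr13:119690101-119690350, plus strand): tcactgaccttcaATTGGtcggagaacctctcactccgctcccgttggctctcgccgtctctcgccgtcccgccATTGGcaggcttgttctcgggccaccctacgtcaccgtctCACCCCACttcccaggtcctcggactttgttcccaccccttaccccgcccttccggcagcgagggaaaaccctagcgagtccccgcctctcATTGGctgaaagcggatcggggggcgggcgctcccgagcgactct
Nsdhl (chrX:72918271-72918520, plus strand): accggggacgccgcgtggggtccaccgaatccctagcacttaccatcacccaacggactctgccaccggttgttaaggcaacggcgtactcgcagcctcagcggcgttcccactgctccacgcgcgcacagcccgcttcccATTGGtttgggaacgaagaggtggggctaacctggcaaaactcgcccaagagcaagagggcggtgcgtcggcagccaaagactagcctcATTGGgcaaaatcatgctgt
Abca1 (chr4:53159896-53160145, minus strand): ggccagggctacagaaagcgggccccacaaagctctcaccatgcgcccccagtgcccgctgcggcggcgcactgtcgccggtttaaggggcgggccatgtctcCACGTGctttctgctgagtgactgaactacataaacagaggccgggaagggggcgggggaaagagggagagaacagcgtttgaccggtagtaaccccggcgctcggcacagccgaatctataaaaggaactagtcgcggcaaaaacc
Hmgcs1 held 1 sterol regulatory element core, which starts 136 bases before the gene, and 3 CCAAT boxes, Nsdhl held 2 CCAAT boxes, and Abca1 held an E-box and neither of the other motifs. Of the 26 cholesterol genes 18 had a window in the RefSeq table. A CCAAT box stood in 16 of those 18, against 37.5% of the 27025 genes in the table, and the sterol regulatory element core in 2 of 18 (Hmgcs1 and Acat2), against 2.98% of all. Of 14 genes of the LXR list with a window, 6 had a CCAAT box and 0 the sterol regulatory element core. The E-box stood in 5 of the 18 cholesterol genes and in 2 of the 14 LXR genes, against 6.86% of all. These are matches of letters in a short window, and nothing about binding was measured.

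Genes of lysosomes lay mostly below 0. Of 23 members of the lysosome and autophagy list, 20 had a log2 fold change below 0, 7 were lower without overlap, where 4.91% of all genes were, and the median was -0.19. The one called member, where 0.181% of all genes were called lower, was Hexa, the alpha subunit of the lysosomal enzyme hexosaminidase, at 91.7, 94.3 and 83.4 CPM in Ctr and at 54.3, 64.6, 65.1 and 56.0 CPM in Ctr + 4-OHT (-0.58 ± 0.08, adjusted p = 0.0320). Psap, the precursor of the saposins and the most abundant member, was not called (-0.23 ± 0.09, adjusted p = 0.510). The summed level of the list was 3196 to 3605 CPM in Ctr, 2669 to 3099.5 CPM in Ctr + 4-OHT and 2724 to 3126 CPM in Smg6-iKO, so the sums of both treated groups lay below Ctr, whereas the mean log2 CPM of the list overlapped between the controls. That mean was 6.01 and 5.96 in embryos SMH_125 and SMH_131 and 6.15 in both embryos SMH_126 and SMH_129, against 6.14 to 6.33 in Ctr, so the lowest libraries were those apart on the first principal component. Without the library of SMH_131 the median was -0.12.

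**Figure D4:**
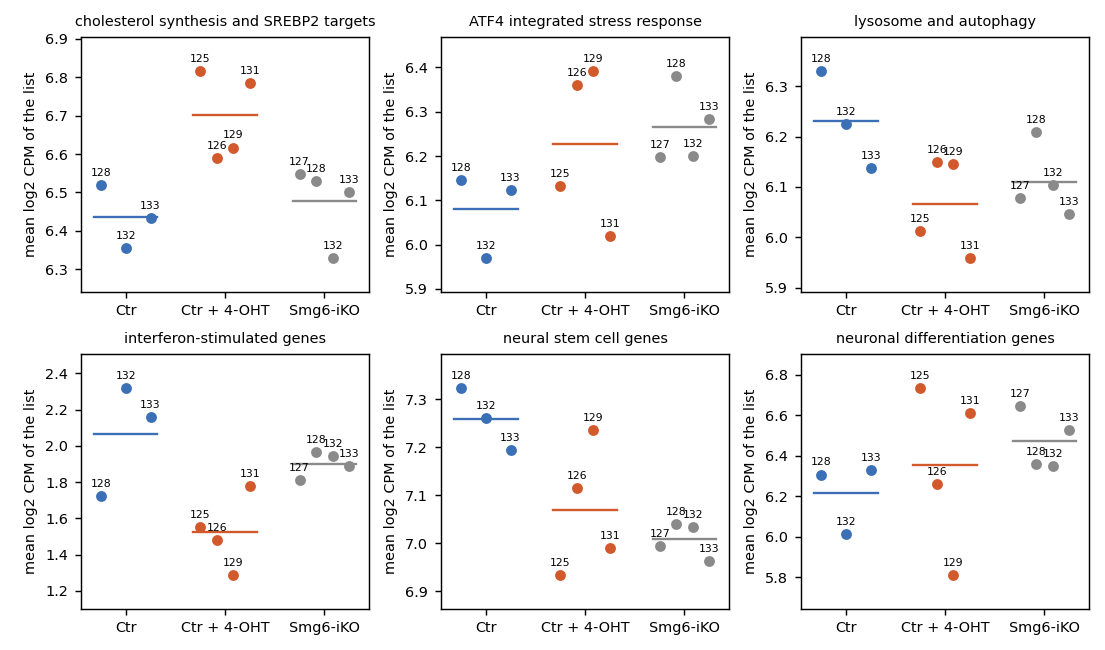
Mean log2 CPM over the tested members of 6 gene lists, one point per library labelled with its embryo and a line at each group mean. The 4 Ctr + 4-OHT points lay above the Ctr points for cholesterol synthesis, overlapped Ctr for the ATF4 response, lysosome, interferon, neural stem cell and neuronal lists, and were more scattered than Ctr for the neuronal list.

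Among stress responses, most targets of ATF4, the transcription factor of the integrated stress response, were above 0. Of 23 tested, 18 were above 0, 7 were higher without overlap, where 3.8% of all genes were, and the median was 0.18. The mean log2 CPM of the list was 6.36 and 6.39 in embryos SMH_126 and SMH_129, above the Ctr range of 5.97 to 6.15, and 6.13 and 6.02 in embryos SMH_125 and SMH_131, within it. Without the library of SMH_131 the median was 0.28. By edgeR and limma-voom 0 were called, and 12 had an unadjusted p under 0.05. DESeq2 called 3 higher (Asns, Gars and Trib3), where it called 43 of 20249 genes higher. Gars, glycyl-tRNA synthetase, was at 242 ± 14.7 CPM in Ctr and 296 ± 7.41 CPM in Ctr + 4-OHT (0.29 ± 0.06, adjusted p = 0.174), and Ddit4, an inhibitor of mTOR and the most abundant member, differed the other way (-0.26 ± 0.11, adjusted p = 0.577). Ddit3, which encodes CHOP, was at 48.7 to 64.2 CPM in Ctr and at 30.1 to 51.8 CPM in Ctr + 4-OHT (-0.39 ± 0.18, adjusted p = 0.625). Slc7a11, the cystine transporter, had the lowest p among 15 tested genes of the NRF2 oxidative stress response, at 14.5, 13.9 and 16.8 CPM in Ctr and at 29.5, 18.4, 23.4 and 26.3 CPM in Ctr + 4-OHT (0.69 ± 0.15, adjusted p = 0.174). It is also a target of ATF4, and the NRF2 list as a whole had 6 members above and 9 below 0, a median of -0.03 and 0 called, although DESeq2 called Slc7a11 and 3 members had an unadjusted p under 0.05. Txn1, thioredoxin, was at -0.06 ± 0.10. The unfolded protein response had 10 of 16 below 0 and a median of -0.05, with the chaperones Calr and Canx at -0.24 ± 0.07 and -0.08 ± 0.10, 0 called and 3 with an unadjusted p under 0.05. Of 30 p53 targets 22 were below 0, with a median of -0.08, 0 called, 0 with an unadjusted p under 0.05 and 0 non-overlapping. The most abundant, Ccng1, was at -0.12 ± 0.17 and Btg2, an antiproliferative gene, at -0.28 ± 0.14. Cdkn1a, the p53 target that encodes p21, was at 222, 192 and 165 CPM in Ctr but at 107 and 118 CPM in embryos SMH_125 and SMH_131 and 196 and 197 CPM in embryos SMH_126 and SMH_129 of Ctr + 4-OHT. The spread within the treated group was thus wider than the distance between the groups.

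Interferon-stimulated genes lay mostly below 0. Of 20 tested, 16 were below 0 with a median of -0.51, 3 were lower without overlap, where 4.91% of all genes were, and 10 had an unadjusted p under 0.05 in that direction. By edgeR and limma-voom 0 were called. DESeq2 called 2 lower (B2m and Rsad2), where it called 168 of 20249 genes, 74.4% of them lower. Rsad2, an antiviral enzyme, was at 1.98, 2.56 and 1.88 CPM in Ctr and at 0.893, 1.11, 1.07 and 0.883 CPM in Ctr + 4-OHT (-1.11 ± 0.19, adjusted p = 0.0707). Usp18, which removes the interferon-induced modifier ISG15, was at 0.451, 2.46 and 1.38 CPM in Ctr and at 0.291 to 0.601 CPM in Ctr + 4-OHT, so that the Ctr library of embryo SMH_128 lay among the treated ones. The mean log2 CPM of the list was 1.72 in that library, 2.32 and 2.16 in the other Ctr libraries, and 1.29 to 1.78 in Ctr + 4-OHT. H2-K1, a class I histocompatibility gene and the most abundant member, differed the other way (0.23 ± 0.11, adjusted p = 0.641). The summed level of microglia and macrophage markers was 4.47 to 6.74 CPM in Ctr and 4.44 to 6.18 CPM in Ctr + 4-OHT, and 3 of 13 of them passed the filter, with a median of -0.13, 0 called, 0 with an unadjusted p under 0.05 and Cd68 at -0.30 ± 0.18.

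The immediate-early and ERK feedback list was divided, with 12 members above and 11 below 0 and a median of 0.01, but 5 of 23 were lower without overlap, where 4.91% of all genes were. These included transcription factors of the EGR family that growth factors induce. Egr2 was at 4.92, 6.49 and 6.50 CPM in Ctr and at 2.72, 3.68, 3.42 and 3.29 CPM in Ctr + 4-OHT (-0.87 ± 0.16, adjusted p = 0.0995). Egr1 was at 72.8 to 81.1 CPM against 43.3 to 66.7 CPM (-0.49 ± 0.13, adjusted p = 0.351), and Egr3 at 4.26 to 5.09 against 1.63 to 3.46 CPM (-1.01 ± 0.25, adjusted p = 0.264). By edgeR 0 of the list were called, and 4 had an unadjusted p under 0.05. DESeq2 called Egr2 and Egr3 lower, where it called 168 of 20249 genes, 74.4% of them lower. Jun, the most abundant member, stood at 0.01 ± 0.11. The xenobiotic and aryl hydrocarbon list had 17 tested, 0 called, 2 with an unadjusted p under 0.05 and a median of -0.01, with the lowest p in Gsta4, a glutathione transferase (-0.52 ± 0.14, adjusted p = 0.306), the one member DESeq2 called, and Ephx1, epoxide hydrolase, at -0.03 ± 0.20. Hypoxia and glycolysis genes had a median of -0.06 over 18 members with 0 called and 1 with an unadjusted p under 0.05, with Pdk1, pyruvate dehydrogenase kinase, at 0.20 ± 0.07 and Aldoa, aldolase, at -0.23 ± 0.12. All 9 tested mitochondrially encoded genes were below 0, with 0 called, 2 with an unadjusted p under 0.05 and a median of -0.13, which was -0.050 without the library of SMH_125 and -0.076 without that of SMH_133. The lowest p was that of mt-Nd4, a subunit of complex I that DESeq2 called, at 175 ± 11.98 and 132.6 ± 11.1 CPM (-0.40 ± 0.08, adjusted p = 0.126), and the ribosomal RNA mt-Rnr2 was at -0.03 ± 0.27. Mitochondrial reads were 1.18% of the library of embryo SMH_125 and 1.97% to 2.31% of the other control libraries.

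No tested decay factor and no tested host gene of small nucleolar RNAs was called between the controls. Of 10 factors of nonsense-mediated decay, 0 were called and 0 had an unadjusted p under 0.05, with a median of -0.03, and Upf2 and Smg1 were at -0.21 ± 0.11 and -0.11 ± 0.07. Host genes of small nucleolar RNAs, many of which are decay substrates, had 15 of 16 below 0, a median of -0.11, 0 called and 0 with an unadjusted p under 0.05. The median was -0.056 without the library of SMH_131, -0.071 without that of SMH_125 and -0.18 without that of SMH_126. Gas5 was at 333 ± 9.73 CPM in Ctr and 298 ± 39.4 CPM in Ctr + 4-OHT (-0.16 ± 0.10, adjusted p = 0.698), against 713 ± 49.4 CPM in Smg6-iKO, and Epb41l4aos at 27.3 ± 1.23, 23.6 ± 4.26 and 95.3 ± 12.5 CPM. For Gas5 and Epb41l4aos all libraries of both controls were below all Smg6-iKO libraries, whereas for other host genes, such as Snhg3 and Snhg20, they were not. The share of all genes with that pattern was not determined.

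**Figure D5:**
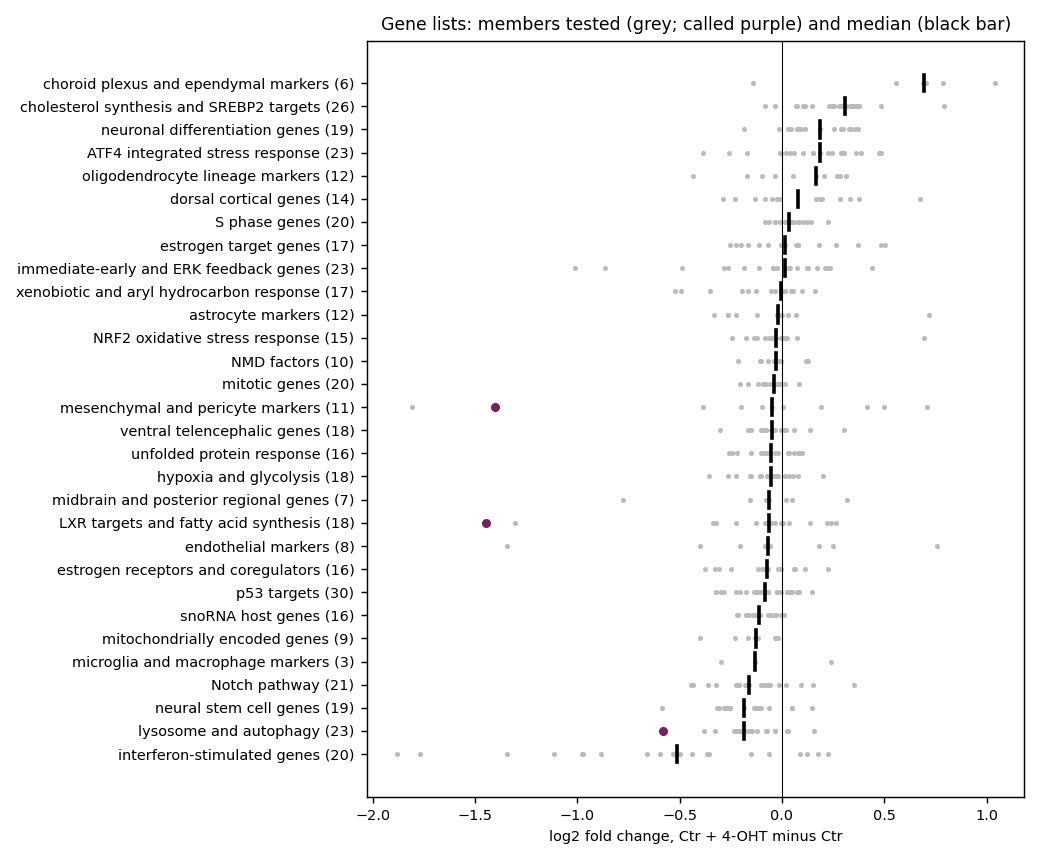
Log2 fold change between Ctr + 4-OHT and Ctr for the tested members of the lists of pathways and cell types, one grey point per gene, purple where called, with a black bar at the median and the number tested in parentheses. The cholesterol list was shifted right as a block, the interferon list had most members to the left, and called members stood alone in the mesenchymal, LXR and lysosome lists.

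Lists of cell types described the make-up of the cultures, and in bulk RNA fewer cells of a type and less RNA per cell cannot be told apart. Neural stem cell genes had 16 of 19 below 0 and a median of -0.18, with 0 called and 3 with an unadjusted p under 0.05, and without the library of SMH_125 the median was -0.11. Hes5, a Notch effector, was at 99.3, 70.4 and 62.6 CPM in Ctr and at 43.4, 52.3, 66.7 and 43.7 CPM in Ctr + 4-OHT (-0.59 ± 0.18, adjusted p = 0.401), and Vim, vimentin, was at -0.11 ± 0.10. The Notch pathway had 17 of 21 below 0, a median of -0.16 (-0.079 without the library of SMH_125), 0 called and 5 with an unadjusted p under 0.05, with the ligand Jag1 at -0.32 ± 0.09 and Mib1, which activates Notch ligands, at 0.02 ± 0.07. Neuronal genes went the other way, with 17 of 19 above 0, a median of 0.18, 0 called and 1 with an unadjusted p under 0.05. The median was 0.33 without the library of SMH_129, 0.12 without that of SMH_125 and 0.11 without that of SMH_131. Stmn3, a microtubule regulator, was at 102, 81.2 and 102 CPM in Ctr and at 150.4, 112, 94.2 and 130.3 CPM in Ctr + 4-OHT (0.36 ± 0.15, adjusted p = 0.575), and Map2 was at 0.08 ± 0.09. The summed level of the neuronal genes was 2901 to 3336 CPM in Ctr and 2670.3 to 4520.3 CPM in Ctr + 4-OHT, so the treated libraries spanned the Ctr range on both sides. Embryos SMH_125 and SMH_131 were the high ones, at a mean of 6.74 and 6.61 log2 CPM, and embryo SMH_129 was the lowest of all, at 5.81. Emx1, a transcription factor of the dorsal cortex, was likewise at 28.0 and 20.8 CPM in embryos SMH_125 and SMH_131 and at 13.2 and 7.66 CPM in embryos SMH_126 and SMH_129, with 13.4 to 17.4 CPM in Ctr. The same libraries were those that stood apart on the first principal component.

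Regional genes followed no common direction. Dorsal cortical genes had 7 above and 7 below 0 of 14 tested (median 0.08), ventral telencephalic genes 13 of 18 below 0 (median -0.05), and midbrain and posterior genes 4 of 7 below 0 (median -0.06). In each, 0 were called, and 2, 1 and 0 had an unadjusted p under 0.05. Sp8 and Nr2f1 of the dorsal list were at -0.29 ± 0.12 and -0.23 ± 0.10, and Gad1 of the ventral list at -0.09 ± 0.10. Pax3 and Otx2 of the midbrain and posterior list were at -0.78 ± 0.40 and 0.02 ± 0.17. Cycling genes differed little: S phase genes had a median of 0.04 over 20 members, with Ccne2 at 0.22 ± 0.12 and Rrm1 at 0.03 ± 0.08, and mitotic genes had 18 of 20 below 0 but a median of only -0.04, with Kif20a at -0.21 ± 0.09 and Top2a at -0.03 ± 0.10. None of these 40 genes was called by edgeR, and 1 had an unadjusted p under 0.05.

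Markers of glia and of cells outside the neural lineage completed the lists. Oligodendrocyte lineage markers had 8 of 12 above 0 and a median of 0.17, with 0 called, 2 with an unadjusted p under 0.05 and Olig1, a transcription factor of that lineage, at 265 ± 15.5 and 329 ± 39.2 CPM (0.31 ± 0.10, adjusted p = 0.399). Without the library of SMH_129 that median was 0.028, and without that of SMH_126 it was 0.094. Astrocyte markers had a median of -0.02 over 12, which lay between -0.016 and -0.13 without 1 library and was lowest without the Ctr library of SMH_133, with 0 called, 3 with an unadjusted p under 0.05, Gja1, connexin 43, at -0.22 ± 0.08 and Aldh1l1 at -0.01 ± 0.11. Gfap, the astrocyte filament protein, was at 21.4, 11.5, 5.14 and 78.2 CPM in the 4 Ctr + 4-OHT libraries and at 10.6 to 26.2 CPM in Ctr. Endothelial markers summed to 9.47 to 10.0 CPM in Ctr and 7.24 to 8.52 CPM in Ctr + 4-OHT, with 8 of 10 tested, a median of -0.07, 0 called, 1 with an unadjusted p under 0.05, and Emcn and Kdr at -1.35 ± 0.46 and -0.40 ± 0.19. Mesenchymal and pericyte markers summed to 517 to 676 CPM in Ctr and 471 to 1012 CPM in Ctr + 4-OHT, with a median of -0.05 over 11. Col3a1, a fibrillar collagen and the most abundant of them, was at 244, 255 and 360.1 CPM in Ctr and at 509, 244, 209 and 566 CPM in Ctr + 4-OHT (0.41 ± 0.33, adjusted p = 0.765). It was thus high in embryos SMH_125 and SMH_131, whereas Tagln, the 1 called member where 0.181% of all genes were called lower, was low in all 4. Choroid plexus and ependymal markers had 5 of 6 tested above 0 and a median of 0.69, with 0 called and 1 with an unadjusted p under 0.05. The median was 1.16 without the Ctr library of SMH_128, 0.39 without that of SMH_132 and 0.41 without the Ctr + 4-OHT library of SMH_129. Their sum was 28.9 to 115 CPM in Ctr and 83.5 to 181 CPM in Ctr + 4-OHT, Ttr, the transthyretin of choroid plexus, had an adjusted p of 0.646, and Foxj1, the regulator of motile cilia, was at 10.5, 10.0 and 9.26 CPM in Ctr and at 11.9, 20.0, 19.4 and 12.7 CPM in Ctr + 4-OHT (0.69 ± 0.19, adjusted p = 0.351, called by DESeq2). The part of these cell types in the called genes was not tested.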

How the data were processed

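Total RNA of NPC cultures was depleted of ribosomal RNA and sequenced as stranded libraries by the authors, who deposited 1 table of raw read counts per gene and library. According to the submitters' processing notes and the file headers, reads were demultiplexed with bcl2fastq 1.8.4, aligned to GRCm38 with STAR 2.5.4b and counted over Ensembl release 92 genes with featureCounts 1.5.0, strand setting 2. The labels give 3 days of 4-OHT. The Results of the study describe culture with the drug for 6 days, and its Methods place RNA isolation 6 days after the treatment. Symbols were matched from GENCODE M21 for 53706 of 53801 gene IDs, and a symbol shared by several IDs was given the ID with the most counts.

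The 3 Ctr and 4 Ctr + 4-OHT libraries were compared with edgeR 4.0.16 (R 4.3.3), with filterByExpr, TMM normalization, the quasi-likelihood F-test and Benjamini-Hochberg adjustment over all genes tested. Adjusted p values in the text are from this fit unless another tool is named. Genes were called at an adjusted p under 0.05, and all values after ± beside a log2 fold change are SE and beside a mean are SD. Log2 CPM used a prior count of 2. Genes at 0 in a group were given a floor of 3 counts, ratios of summed counts have exact 95% intervals, and both cover counting error only. Named were Smg6, Esr1, Gt(ROSA)26Sor, up to 12 called genes per direction with the largest change, a mean of at least 1 CPM and no overlap between groups, up to 4 called members of each list, and in lists with under 2 called the member with the lowest p and the most abundant one. Some genes that this rule names are not reported here. Other genes were named after their values were seen. The members and gene lists were chosen with earlier results of these data known.

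Cultures are numbered in the labels, and the same number in Ctr and Smg6-iKO was taken as the same embryo. Over the 3 shared numbers, deviations from the group means had a correlation of 0.46. P-values measure the spread between these cultures. No pair of libraries within a group agreed within sampling noise. Other normalizations and filters, limma-voom (limma 3.58.1), DESeq2 1.42.0, all 11 libraries, an embryo block, a term for sex, a correction for gene length and leaving out each library were tried. Only the main edgeR fit was tested on simulated counts, and the alternatives were not. Tables and figures were made with Python 3.11.15, pandas 2.3.3, numpy 2.4.6, scipy 1.17.1 and matplotlib 3.10.9.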

Additional observations from a re-analysis of the deposited data

Results flagged for a closer look

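In 6 cases 1 library stood apart from the others of its group by Dixon's criterion for 4 libraries, which chance meets in about 1 in 20 groups. Many genes and groups were screened, so some such cases would arise by chance alone. No explanation was tested for any of them. Wdfy1 was at 83.7 CPM in the Smg6-iKO library of embryo SMH_127 and at 54.1 to 57.1 CPM in the other Smg6-iKO libraries. Gm6494 was at 0.787 CPM in the same library and at 0 to 0.0633 CPM in the others. Gm11977 was there at 0.612 CPM, against 0.0316 to 0.0367 CPM in the others. Within Ctr + 4-OHT, Gm11977 was at 0.819 CPM in embryo SMH_125 and at 0.646 to 0.671 CPM in the rest, and Abca1 was at 49.97 CPM in embryo SMH_126 and at 37.9 to 39.6 CPM in the rest. F2r was at 184 CPM in the Smg6-iKO library of embryo SMH_128 and at 166 to 167 CPM in the others.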

How the results depend on the processing

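The number of called genes depended on the test and on single libraries more than on the scaling. DESeq2's size factors, upper-quartile scaling, limma-voom, at least 10 counts in every library, a correction for gene length and the omission of X and Y genes gave 30 to 40 calls. DESeq2 called 168 genes on the 7 libraries (43 higher, 4 within 10 Mb of Gt(ROSA)26Sor) and 238 on all 11 (68 and 5). Without a filter on low counts 198 were called (57 and 4). The edgeR fit of all 11 libraries called 60, and a term for sex left 25 (4 higher). Leaving out 1 library gave 5 to 54 calls, 1 to 9 of them higher and 0 to 2 within 10 Mb of Gt(ROSA)26Sor. The causes were not tested. The share of calls that were lower was 82.1%, against 71.2% without a filter, 74.4% and 71.4% by DESeq2 on 7 and 11 libraries, and 80.0% to 93.8% without 1 library. All 774 values of the 39 called genes under the alternatives kept their direction, and 205 were no longer past the threshold. The 2 control groups share no embryo, so no paired fit within the comparison was possible. With the embryo as a replicate block over 11 libraries, limma-voom called 66, and without the block 62. Of the named genes not called, 8 changed sign. Without 1 library the log2 fold change ranged from -0.060 to 0.092 for Aldh1l1, -0.19 to 0.10 for Ephx1, -0.087 to 0.080 for Jun, -0.029 to 0.059 for Mib1, -0.11 to 0.23 for Otx2, -0.020 to 0.074 for Rrm1, -0.11 to 0.017 for Top2a and -0.16 to 0.21 for mt-Rnr2. Jun was at -0.0031 with the embryo block, and mt-Rnr2 at 0.0004 with the term for sex. Of the list medians, that of cholesterol synthesis lay between 0.27 and 0.34 under all alternatives. Without 1 library, those that moved beyond the spread between libraries were the xenobiotic (-0.079 to -0.014), Notch (-0.17 to -0.079), endothelial (-0.22 to 0.037) and midbrain and posterior (-0.11 to 0.077) lists. Within that spread, the medians of the p53 (-0.20 to 0.015), dorsal cortical (-0.12 to 0.29), mesenchymal (-0.19 to 0.18), microglia, ventral telencephalic, S phase, mitotic, NRF2 and immediate-early lists changed sign without 1 library or another. Without 1 library, the medians of the estrogen target (0.0093 to 0.056), estrogen receptor (-0.11 to -0.019), NMD factor (-0.052 to -0.018), unfolded protein (-0.078 to -0.018) and hypoxia (-0.11 to -0.019) lists kept their sign. Depth limits 6820402A03Rik, Gm6494 and Gm11977, which had at most 66 reads in a library. Without 1 library the log2 fold change of Gm6494 ranged from 4.99 to 7.28 and that of Gm11977 from 2.87 to 4.22. Their calls were kept in 4 and 1 of those 7 fits.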

Other observations

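Some genes that were not called differed widely between embryos of one group. Rps3a3, a copy of a ribosomal protein gene, was at 88.9 and 80.2 CPM in the Ctr libraries of embryos SMH_128 and SMH_133, at 69.9 CPM in the Ctr + 4-OHT library of SMH_131 and at 63.1, 77.5 and 68.0 CPM in the Smg6-iKO libraries of SMH_127, SMH_128 and SMH_133. It was at 0.937 CPM or less in the other 5 libraries. Gm11942 was at 13.8 to 15.7 CPM in the 5 libraries of embryos SMH_132, SMH_133 and SMH_131 and at 0.268 CPM or less in the other 6. Gm6472 was at 4.93 to 5.43 CPM in embryos SMH_126, SMH_127 and SMH_129 and at 44.3 to 54.7 CPM in the rest. For each of these genes, the Ctr and the Smg6-iKO library of embryos SMH_128, SMH_132 and SMH_133 were alike. Reads of such copies can be shared with their parent genes, and the cause of the differences was not tested.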
